A study of Mus musculus with 9 samples.

Results

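Steroid, thyroid hormone and vitamin D receptors are transcription factors that are switched on by a hormone, and the 9 genes described here encode such receptors or the retinoid X receptors that pair with several of them. They are *Nr3c1* (the glucocorticoid receptor), *Nr3c2* (the mineralocorticoid receptor), *Esr1* and *Esr2* (the oestrogen receptors alpha and beta), *Pgr* (the progesterone receptor), *Thra* (thyroid hormone receptor alpha), *Vdr* (the vitamin D receptor), *Rxra* and *Rxrg* (retinoid X receptors alpha and gamma). The genes were chosen by name from the nuclear receptor family, 9 of the 55450 genes counted. RNA was sequenced from the developing and the mature mouse pituitary, in animals of 129Sv/c57BL6J background. The embryo group was 7 libraries of Rathke's pouch, the epithelial pouch that forms the anterior and intermediate lobes, each from a *Sox2Egfp/+* embryo at e13.5. The adult group was 2 libraries of pituitary glands from which the posterior lobe had been taken away, at postnatal week 8. The *Egfp* allele lies in the progenitor gene *Sox2*. That allele is given for the embryos only, so any part of it cannot be told apart from stage. Both groups held males and females, the adults being of different sex, but the labels do not give the sex of single libraries and it was not used here. The comparison of stages asks which hormone receptor genes differ in transcript level between the forming and the working gland.

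Steroid receptors are held by chaperones until the hormone binds, and then act on DNA elements made of paired half-sites. The thyroid hormone and vitamin D receptors stay on DNA with a retinoid X receptor partner and exchange corepressors for coactivators when hormone is present. In the mature anterior pituitary these receptors carry the feedback of the adrenal glands, gonads and thyroid onto the hormone cells, and oestrogen also acts on lactotropes and gonadotropes.

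The embryo libraries held 16738863 to 28537311 read pairs counted on genes, with a median of 24687556, and adults 1 and 2 held 36421545 and 31191117. Levels are given as CPM, the count of a gene scaled to libraries of equal size by the TMM method. A floor of 3 counts was worth 0.220 CPM or less in every embryo library and 0.0843 CPM or less in both adult libraries. Floors cover counting error only, whereas the intervals given below come from the fit and include spread between libraries. With 2 adults, the adult spread has a single difference behind it, and the fit takes much of its error from other genes and from the embryos.

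Hormone-cell genes set the adult libraries far apart from the embryos, while the progenitor sum of the lowest embryo was close to that of adult 1. Transcripts of 7 hormone-cell genes summed to 870.2 to 1920 CPM in the embryos (median 1276) and to 152500 and 160100 CPM in the adults. *Cga*, the shared glycoprotein hormone subunit, was the most abundant of them in the embryo and *Gh*, growth hormone, in the adult, and 6 of the 7 rose in the adult. Of 5 progenitor genes 2 fell in the adult, among them *Hesx1* by 5.78 on the log2 scale, and 3 were not called. By the adjusted p-value alone 3 of the 5 were lower in the adult and 1 was higher. The progenitor sum was 205.6 to 460 CPM in the embryos and 204.9 and 186.1 CPM in the adults.

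Cells other than the epithelium were present in both groups. Of 5 mesenchyme genes 4 fell in the adult, and their sum was 578.6 to 2141 CPM in the embryos (median 1476, led by *Col3a1*) against 547.2 and 336.4 CPM in the adults (led by *Col1a2*). Endothelial genes summed to 141.5 to 507 CPM in the embryos (median 254.2, led by *Emcn*, the 1 of 5 that was called lower in the adult) and to 120.8 and 72.9 CPM in the adults (led by *Kdr*). *Tie1* (-1.97) was also called lower without embryo 1, 3, 4 or 6, at log2 fold changes from -2.105 to -2.06, and without adult 1, at -2.37, where *Cdh5* was called as well (-2.24). By the adjusted p-value alone 4 of the 5 were lower in the adult. Macrophage genes summed to 109.7 to 277.8 CPM (median 129.4, led by *C1qb*) and to 82.8 and 129.9 CPM (led by *Csf1r*). By the adjusted p-value alone 1 of the 5 was higher in the adult and 1 was lower, and their median log2 fold change was -0.45. *Ptprc* alone was called, higher in the adult, at 2.91 on the log2 scale. That call was lost without adult 2, at 2.03 with an adjusted p-value of 0.054, after the length and GC correction, at 1.35, and with the replicate number as a block (adjusted p-value 0.0903). Of 6 neural and posterior lobe genes, *Rax* and *Nkx2-1* fell in the adult while *Avp*, *Oxt* and *Slc17a6* were higher there, with sums of 46.3 to 135 CPM (median 68.2, led by *Rax*) and of 23.5 and 27.3 CPM (led by *Slc17a6*). *Avp* had no count in any embryo, so its adult mean was at least 18.0-fold higher, taking the floor as 3 counts in each embryo library. The part of these cells in the receptor values below was not tested, and in RNA from whole tissue fewer cells of a type and less RNA per cell cannot be told apart.

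Embryo libraries 1 and 4 stood apart from the other 5 in counted pairs and in erythroid transcripts. Counted pairs made up only 59.7% and 62.8% of all read pairs there. The share was 73.9% to 80.0% for the remaining embryo libraries, and adults 1 and 2 had 84.0% and 83.7%. The 5 erythroid genes, led by the globin *Hbb-bs* in both groups, summed to 66590 and 80670 CPM in these libraries, to 1680 to 7262 CPM in the remaining embryos, and to 745.5 and 1897 CPM in the adults. Erythroid genes called lower in the adult numbered 4 of 5. The globin genes *Hba-a1*, *Hbb-bt* and *Hbb-bs* lost their calls without adult 1 (adjusted p-values 0.115, 0.115 and 0.228) and without adult 2 (0.0778, 0.0745 and 0.113), and after the length and GC correction (0.0834, 0.0741 and 0.285). *Hbb-bs* was also not called without embryo 1, 4 or 6, with adjusted p-values of 0.0571, 0.0605 and 0.0565. Receptor values are therefore given with and without embryos 1 and 4. Embryo 2 differed in other markers. It had the highest endothelial, macrophage and neural sums of the embryos (507, 277.8 and 135 CPM) and the lowest progenitor sum (205.6 CPM). Leaving out embryo 2 gave log2 fold changes of 10.5 for *Esr1*, 3.76 for *Vdr* and 3.27 for *Nr3c2*. *Pgr*, *Nr3c1* and *Thra* were then at 2.84, 2.58 and -0.09, and 5 receptor genes were again called higher in the adult.

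All 9 receptor genes passed the filter of a mean count of at least 5, and 5 of them rose in the adult: *Esr1*, *Vdr*, *Nr3c2*, *Pgr* and *Nr3c1*, in order of fold change. A call needed a fold change above 4 and, in edgeR's quasi-likelihood test, an adjusted p-value (Benjamini-Hochberg) below 0.05. Among all 19371 genes tested, 14.6% were called higher in the adult and 11.3% higher in the embryo. No receptor gene was called higher in the embryo by edgeR, 0 were lower in the adult at an unadjusted p-value below 0.05, and DESeq2 also called 0. *Esr2*, *Thra*, *Rxra* and *Rxrg* made up the 4 that were not called. By the adjusted p-value alone, at any fold, the same 5 genes passed in the adult direction and 0 in the other, where 27.4% and 24.0% of all genes did. The median log2 fold change of the 9 genes was 2.69, and that of all tested genes was 0.04. Scaling by library size alone moved the median of all genes to 0.26.

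**Figure D1:**
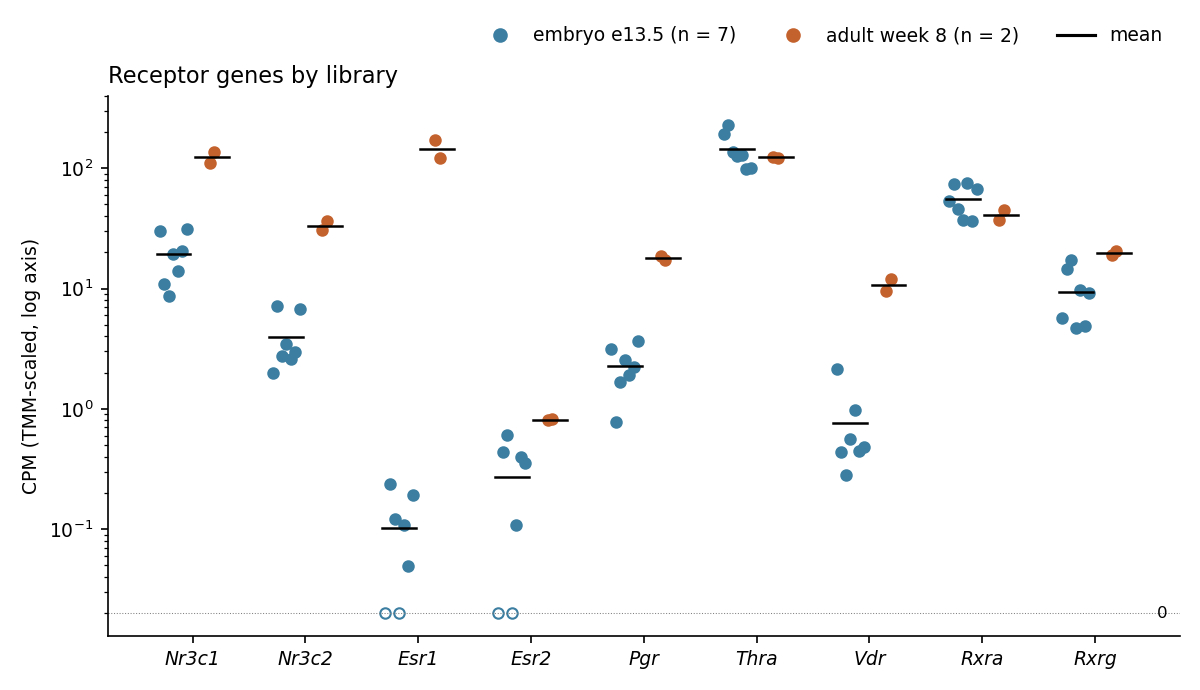
CPM of the 9 receptor genes in each of 7 embryo and 2 adult libraries on a log axis, with open points for a count of 0 and a line at each group's mean. *Esr1* lies between 0 and 0.237 CPM in the embryos and at 170.4 and 120.8 CPM in the adults, while the points of *Thra* and *Rxra* overlap.

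The plot of receptor CPM by library shows adult points above all embryo points for 7 of the 9 genes. *Esr2* and *Rxrg* are among those 7 without being called. Both adults lay above every embryo in CPM for 32.9% of all 19371 genes tested, beside the 14.6% that were called in that direction.

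The longest transcripts of the 5 called genes ran from 4370 bases (*Vdr*) to 6889 bases (*Pgr*), and those of the other 4 from 2110 bases (*Rxrg*) to 4905 bases (*Rxra*). Log2 fold changes were higher for genes with longer transcripts (Spearman rho 0.388 across 19371 genes, which are not independent replicates). When the length and the GC content of transcripts were corrected for within each library, rho was -0.0623. Under that correction 3 of the 9 receptor genes, *Esr1*, *Vdr* and *Nr3c2*, were called higher in the adult, where 12.3% of all genes were, and 0 were called higher in the embryo, where 8.67% were. The corrected log2 fold changes of *Nr3c1* and *Pgr* were 1.25 and 1.73, with adjusted p-values of 0.00238 and 0.00388, so both were higher in the adult by less than the 4-fold threshold. The median of the 9 genes became 1.70, against -0.04 for all genes. The part of transcript length in the receptor values was not tested beyond this.

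**Figure D2:**
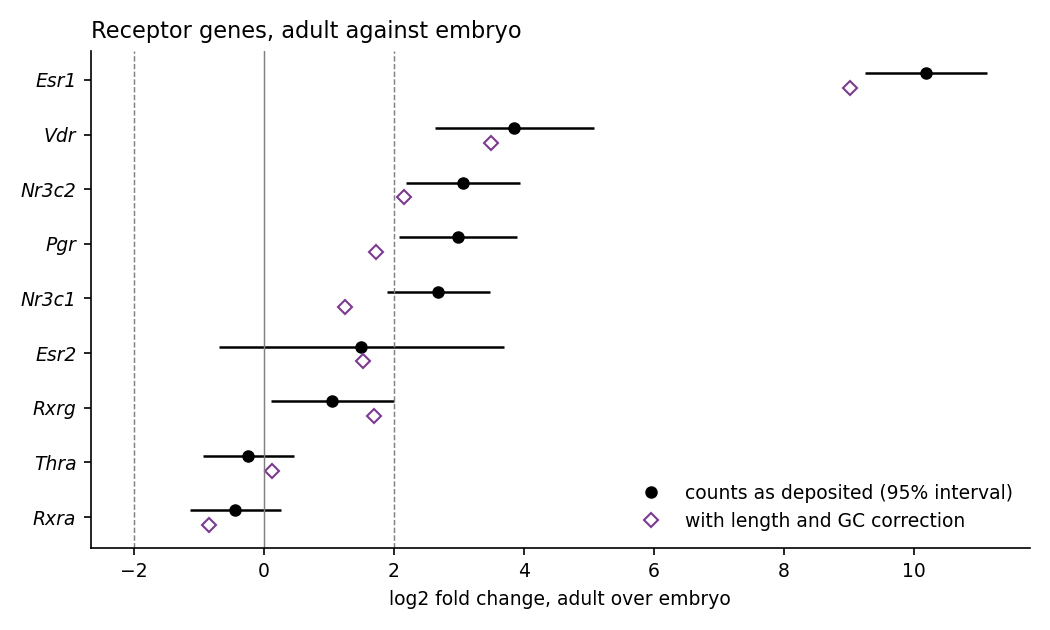
Log2 fold change of each receptor gene, adult over embryo, with 95% intervals from the fit (black) and the value after the length and GC correction (open diamonds), and dashed lines at the 4-fold threshold. *Esr1* is at 10.19 and 9.02 after correction, and *Nr3c1* and *Pgr* move inside the dashed lines at 1.25 and 1.73.

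The plot of log2 fold changes sets both estimates side by side. The interval of *Esr1* runs from 9.25 to 11.13 and lies apart from those of the other 8 genes. *Thra* sits on opposite sides of 0, at -0.23 in the fit and 0.14 after correction, with adjusted p-values of 0.569 and 0.64.

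The start regions of 4 of the genes that rose together, *Nr3c2*, *Esr1*, *Pgr* and *Vdr*, are shown because they differ in base composition. RefSeq promoter sequences (build GRCm38.p6) were matched by symbol for 7 of the 9 genes, all but *Nr3c1* and *Thra*, in 10 promoters. Each entry runs from 250 bases before a transcript start to 50 bases after it, and the 250 bases before the start are printed 5′ to 3′ on the strand of the gene, with every CpG in capitals. They lie at chr8:76902080-76902329 (plus strand) for *Nr3c2*, chr10:4611739-4611988 (plus strand) for the first listed start of *Esr1*, chr9:8899583-8899832 (plus strand) for *Pgr* and chr15:97908297-97908546 (minus strand) for *Vdr*.
Nr3c2: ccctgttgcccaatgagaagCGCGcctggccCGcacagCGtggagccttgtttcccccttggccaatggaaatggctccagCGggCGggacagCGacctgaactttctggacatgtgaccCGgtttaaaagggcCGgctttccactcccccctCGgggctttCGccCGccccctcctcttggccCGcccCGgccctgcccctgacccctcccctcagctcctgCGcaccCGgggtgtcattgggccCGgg
Esr1: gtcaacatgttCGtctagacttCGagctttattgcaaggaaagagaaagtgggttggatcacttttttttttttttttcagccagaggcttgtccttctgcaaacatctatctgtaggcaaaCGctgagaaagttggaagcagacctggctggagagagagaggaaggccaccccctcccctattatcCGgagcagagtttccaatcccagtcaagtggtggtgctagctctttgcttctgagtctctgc
Pgr: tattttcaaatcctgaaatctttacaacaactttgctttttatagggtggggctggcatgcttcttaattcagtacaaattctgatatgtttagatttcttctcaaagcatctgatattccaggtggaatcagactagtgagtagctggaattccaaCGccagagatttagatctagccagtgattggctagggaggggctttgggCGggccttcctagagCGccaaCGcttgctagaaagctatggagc
Vdr: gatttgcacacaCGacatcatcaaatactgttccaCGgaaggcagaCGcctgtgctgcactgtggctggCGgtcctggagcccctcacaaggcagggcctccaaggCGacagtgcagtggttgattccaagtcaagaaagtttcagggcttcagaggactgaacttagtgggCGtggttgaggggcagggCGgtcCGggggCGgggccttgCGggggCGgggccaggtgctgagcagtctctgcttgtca
The stretch of *Esr1* held 4 CpG at a GC content of 47.6%, and that of *Pgr* held 4 at 43.6%. The other listed promoter of *Esr1*, which is not printed, held 7 CpG at 59.6%. *Nr3c2* and *Vdr* held 17 at 68.4% and 11 at 61.2%. Over all 32851 promoters of the table the median was 6 CpG and 52.4% GC. Genes with listed promoters only below these medians (*Pgr*), only above them (*Nr3c2* and *Vdr*) and on both sides (*Esr1*) were thus among those that rose. *Rxra*, which was not called, had promoters with 40 CpG at 81.2% GC before its first listed start and 1 CpG at 55.2% before the other. The promoter of *Esr2* held 12 CpG and those of *Rxrg* 6 and 7.

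No receptor promoter held a full hormone response element of the kinds searched on both strands over the 300 bases. The oestrogen element GGTCANNNTGACC was in 23 promoters of the table (0.0700%), the glucocorticoid-type element GNACANNNTGTNC in 156 (0.475%) and the thyroid hormone direct repeat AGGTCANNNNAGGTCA in 5 (0.0152%), and none of them was in the 10 receptor promoters. The half-site AGGTCA, which is also part of the direct repeat, was in 5340 promoters (16.3%) and in 2 of the 10 receptor promoters, the other promoter of *Rxra* with 2 matches and of *Rxrg* with 1. These letters describe the windows searched and say nothing of binding.

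*Esr1*, through which oestrogen acts on lactotropes and gonadotropes, showed the largest difference among the 9 genes. The gene (ENSMUSG00000019768) spans bases 4611593 to 5005614 of chromosome 10 in GRCm38. In the embryos it ranged from 0 to 0.237 CPM with a median of 0.109, and in adults 1 and 2 it stood at 170.4 and 120.8 CPM. The groups did not overlap. All 7 embryos together gave 20 counts on *Esr1* and both adults gave 11328. Embryos 1 and 4 had no count, which allows up to 0.220 and 0.212 CPM in those libraries. The log2 fold change was 10.19 (95% interval 9.25 to 11.13, adjusted p-value 3.33e-09), a fold of 1170, from 0.101 ± 0.0916 CPM (SD, n = 7) to 145.6 ± 35.1 CPM (SD, n = 2). Without embryos 1 and 4 it was 9.87.

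*Esr2*, the other oestrogen receptor, remained a low transcript at both stages. It (ENSMUSG00000021055, chromosome 12, 76120419 to 76177259) ranged from 0 to 0.609 CPM in the embryos, with a median of 0.353, and was at 0.800 and 0.815 CPM in the adults. Both adults were above every embryo, but on few counts. The highest embryo, number 3, had 15 counts, adults 1 and 2 had 33 and 29, and embryos 1 and 4 had no count. The log2 fold change of 1.50 had an interval from -0.68 to 3.69 and an adjusted p-value of 0.231, so a difference was not detectable at this depth. Without embryos 1 and 4 the value was 1.06. *Esr2* shares 292 bases with a pseudogene on the same strand, *Gm7862*, so its low counts are less certain than those of the other genes.

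*Pgr*, a gene that oestrogen induces in many tissues, rose in the adult together with *Esr1*. The gene (ENSMUSG00000031870, chromosome 9, 8899833 to 8968611) ranged from 0.777 to 3.69 CPM in the embryos, with a median of 2.23, and was at 18.8 and 17.4 CPM in the adults. Every adult value lay above every embryo value, and the lowest embryo was number 2. The log2 fold change was 2.99 (95% interval 2.09 to 3.90, adjusted p-value 7.31e-05), from 2.28 ± 0.964 CPM (SD, n = 7) to 18.1 ± 0.977 CPM (SD, n = 2). It was 3.10 without embryos 1 and 4 and 1.73 after the length and GC correction, which took it below the 4-fold threshold.

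*Nr3c1*, the receptor through which glucocorticoids restrain corticotropes, was already measurable in every embryo. The gene (ENSMUSG00000024431, chromosome 18, 39410545 to 39519421) ranged from 8.65 to 31.0 CPM in the embryos, with a median of 19.3, and was at 110.6 and 136.6 CPM in the adults. The groups lay well apart, and embryos 7 and 1 were the highest of the younger group. Its log2 fold change was 2.69 (95% interval 1.89 to 3.49, adjusted p-value 6.14e-05), from 19.2 ± 8.80 CPM (SD, n = 7) to 123.6 ± 18.4 CPM (SD, n = 2). Without embryos 1 and 4 it was 2.83, and after the length and GC correction it was 1.25, below the 4-fold threshold.

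*Nr3c2*, which binds glucocorticoids as well as aldosterone, rose from a lower level. The gene (ENSMUSG00000031618, chromosome 8, 76899442 to 77245012) ranged from 1.98 to 7.16 CPM in the embryos, with a median of 2.97, and was at 30.7 and 36.2 CPM in the adults. Embryos 2 and 7 were higher than the other 5, and no embryo reached the adults. *Nr3c2* gave a log2 fold change of 3.07 (95% interval 2.19 to 3.95, adjusted p-value 4.79e-05), from 3.96 ± 2.11 CPM (SD, n = 7) to 33.4 ± 3.88 CPM (SD, n = 2). The value was 2.88 without embryos 1 and 4 and 2.16 after the correction, still past the threshold.

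*Vdr*, the receptor for the active form of vitamin D, was low in the embryo and rose in the adult. The gene (ENSMUSG00000022479, chromosome 15, 97854425 to 97910630) ranged from 0.284 to 2.12 CPM in the embryos, with a median of 0.481, and was at 9.50 and 12.1 CPM in the adults. Embryo 1 was the highest of the embryos, apart from the other 6, which reached 0.979 CPM at most, and still lay below both adults. On the log2 scale *Vdr* rose by 3.86 (95% interval 2.64 to 5.08, adjusted p-value 1.0e-04), from 0.760 ± 0.639 CPM (SD, n = 7) to 10.8 ± 1.83 CPM (SD, n = 2). Without embryos 1 and 4 it was 4.32, and after the correction it was 3.49.

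*Thra*, which of the 9 genes had the highest mean level per transcript length at both stages, did not differ detectably between stages. The gene (ENSMUSG00000058756, chromosome 11, 98740638 to 98769006) ranged from 98.9 to 231 CPM in the embryos, with a median of 128.5, and was at 124.7 and 121.4 CPM in the adults. Both adults fell inside the embryo range, in which embryos 2 and 1 were the highest. Its log2 fold change was -0.23 (95% interval -0.94 to 0.47, adjusted p-value 0.569), and -0.20 without embryos 1 and 4. *Thra* overlaps *Nr1d1* on the opposite strand by 1075 bases, and the counts used here were those of the strand of *Thra*.

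*Rxra* and *Rxrg*, the partners of *Thra* and *Vdr* on DNA, were not called either. *Rxra* (ENSMUSG00000015846, chromosome 2, 27676440 to 27762957) ranged from 36.5 to 75.3 CPM in the embryos, with a median of 53.0, and was at 37.2 and 45.1 CPM in the adults. The adults lay within the embryo range, near its lower end. Its log2 fold change was -0.44 (95% interval -1.14 to 0.26, adjusted p-value 0.277), -0.57 without embryos 1 and 4, and -0.84 with an adjusted p-value of 0.00888 after the correction. *Rxrg* (ENSMUSG00000015843, chromosome 1, 167598384 to 167639623) ranged from 4.66 to 17.4 CPM in the embryos, with a median of 9.21, and was at 18.9 and 20.5 CPM in the adults. No embryo reached the adults, though embryo 3 came close and embryos 1, 4 and 6 were the lowest. The log2 fold change of *Rxrg* was 1.06 (95% interval 0.11 to 2.01) with an adjusted p-value of 0.0593, and 0.80 without embryos 1 and 4. The adjusted p-value was below 0.05 by DESeq2 (0.0386), with DESeq2 size factors (0.0445), with no count filter (0.0401) and without embryo 2 (0.0386) or embryo 3 (0.0257), at log2 fold changes from 1.055 to 1.23. After the length and GC correction it was 1.70 with an adjusted p-value of 0.00239, under the 4-fold threshold.

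Embryos 1 and 4 were not uniformly low or high on the receptor genes. Their mean was higher than that of the other 5 embryos for *Nr3c1* (24.7 against 17.0 CPM), *Pgr* (2.85 against 2.06 CPM), *Thra* (158.9 against 139 CPM) and *Vdr* (1.34 against 0.526 CPM). For *Thra* and *Vdr* embryo 1 carried that mean (191.9 and 2.12 CPM), with embryo 4 at 125.8 and 0.564 CPM. The mean was lower for *Nr3c2* (2.72 against 4.46 CPM), *Rxra* (45.2 against 59.9 CPM) and *Rxrg* (5.19 against 11.1 CPM). Both oestrogen receptor genes were at 0 in these libraries, against 0.142 CPM for *Esr1* and 0.381 CPM for *Esr2* in the others. Without them the same 5 receptor genes were called.

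Compared per kilobase of the longest transcript, the receptors stood in a different order at each stage. *Thra* led both, at 59.0 ± 20.0 CPM per kb in embryos (SD, n = 7) and at 50.2 ± 0.941 in adults (SD, n = 2). In the embryo *Rxra* (11.4 ± 3.38), *Rxrg* (4.46 ± 2.33), *Nr3c1* (2.98 ± 1.37), *Nr3c2* (0.669 ± 0.356), *Pgr* (0.331 ± 0.14), *Vdr* (0.174 ± 0.146), *Esr2* (0.081 ± 0.0706) and *Esr1* (0.016 ± 0.0144 CPM per kb) followed. Of these neighbours only *Thra* and *Rxra*, and *Nr3c1* and *Nr3c2*, had ranges that did not overlap over the 7 embryos. *Rxra* was above *Rxrg* within each of the 7 embryos, whereas *Rxrg* was above *Nr3c1* in only 3 of 7.

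In the adult *Esr1* moved from the last place to the place after *Thra*, at 23.0 ± 5.53 CPM per kb. *Nr3c1* came next at 19.2 ± 2.86, then *Rxrg* (9.34 ± 0.514), *Rxra* (8.39 ± 1.14), *Nr3c2* (5.65 ± 0.656), *Pgr* (2.63 ± 0.142), *Vdr* (2.47 ± 0.418) and *Esr2* (0.240 ± 0.00321 CPM per kb). The order of *Esr1* and *Nr3c1* differed between the adults, as did that of *Pgr* and *Vdr*, and the values of *Rxrg* and *Rxra* overlapped. The 9 genes summed to 54.4 to 119 CPM per kb in the embryos (median 75.3) and to 122 and 120 in the adults. The 5 called genes made up 2.63% to 10.1% of that sum in the embryos (median 6.07%) and 44.5% and 43.0% in the adults. These 5 were picked for being higher in the adult, so a larger adult share follows from the choice.

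**Figure D3:**
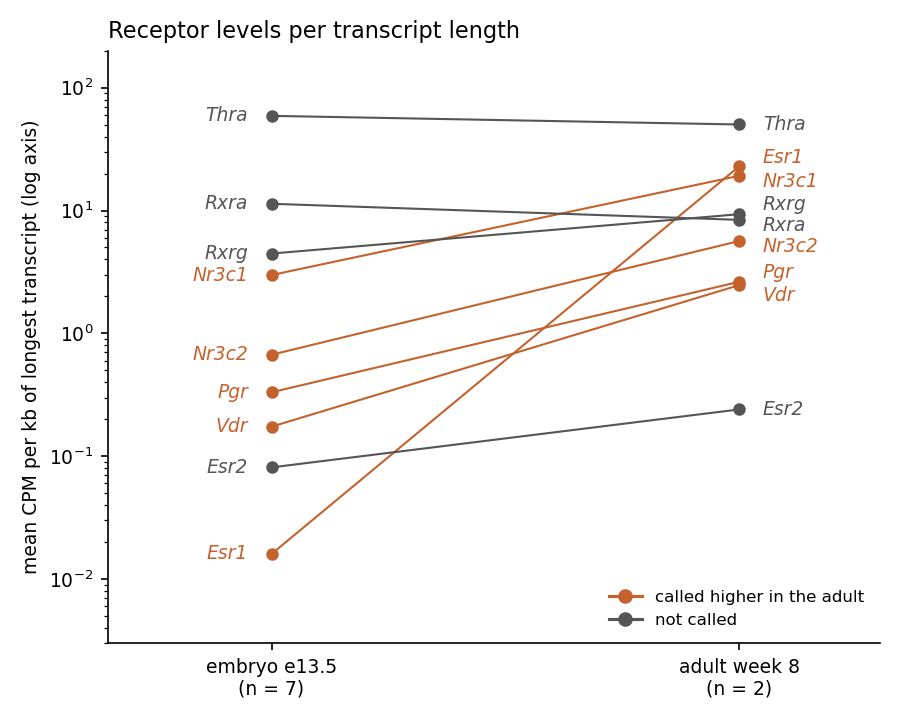
Mean CPM per kilobase of longest transcript of the 9 receptor genes in the embryo (n = 7) and the adult (n = 2) on a log axis, with lines joining the same gene and colour for the 5 genes called higher in the adult. *Esr1* goes from 0.016 to 23.0, while *Thra* stays near the top at 59.0 and 50.2.

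The plot of levels per transcript length shows the spread of the set narrowing in the adult, where *Esr2* alone remained below 1 CPM per kb. *Esr2*, *Esr1*, *Vdr*, *Pgr* and *Nr3c2* were below that level in the embryo mean. The lines of *Rxra* and *Rxrg* cross, and *Rxrg* has the higher mean in the adult.

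Within receptor pairs, the share of each form per transcript length lay outside the embryo range in the adults for 4 of the 6 shares below, which were not tested. *Esr2* made up 65.3% to 93.8% of the summed *Esr1* and *Esr2* level in the 5 embryos with counts (median 77.8%) and 0.877% and 1.26% in the adults. The embryo shares of this pair rest on few counts of both genes, so their sizes are uncertain. *Thrb*, the beta form of the thyroid hormone receptor, made up 0.0473% to 0.933% of *Thra* and *Thrb* in the embryos (median 0.167%) and 24.1% and 21.1% in the adults. The beta form was thus a larger share in both adults, beside an alpha form that was not called. *Rxrg* made up 3.54% to 13.3% of the 3 retinoid X receptor genes in the embryos (median 8.54%) and 29.2% and 31.0% in the adults, and *Rxrb* 54.2% to 82.3% (median 71.5%) and 46.2% and 39.7%. For *Rxra* the adult shares of 24.7% and 29.4% lay within the embryo range of 14.1% to 34.7%. *Nr3c2* as a share of *Nr3c1* and *Nr3c2* also overlapped, at 6.70% to 41.8% in the embryos (median 16.8%) and 23.2% and 22.4% in the adults.

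The genes whose levels followed each receptor most closely were found by Pearson's r of log2(CPM + 0.5) over the 9 libraries, among genes whose mean count was 100 or more. Since the 9 libraries hold both stages, r includes the difference between them, and it is given as a description. For *Nr3c1* the closest were *Rps6ka3* (r = 0.998), *Pdzd8* (0.996) and *Morc3* (0.995). For *Esr1* they were *Myoc* (0.999), *Lhb* (0.999) and *Klhl31* (0.999), of which *Lhb* encodes the beta subunit of luteinising hormone and is itself a hormone-cell marker here. *Nr3c2* was followed by *Snx25* (0.988), *Zfp92* (0.987) and *Jakmip2* (0.986), and *Pgr* by *Tmem56* (0.991), *Zfp367* (0.991) and *Hook1* (0.990). Among the closest to *Vdr* were *Ctxn3* (0.989) and *Fam20c* (0.988). Values for the 4 genes that were not called were lower. *Esr2* was nearest to *Pcnx4* (0.975), *Zcchc18* (0.969) and *Copa* (0.963), and *Rxrg* to *Atp6v0a2* (0.975) and *Tollip* (0.973). *Thra* was nearest to *Arap1* (0.954), *Dirc2* (0.926) and *C1qa* (0.923), the last a macrophage marker of the lists used here. *Rxra* was nearest to *Tbc1d2b* (0.951), *Slc11a1* (0.951) and *Zfp710* (0.942).

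Values in parentheses without a unit are log2 fold changes, adult over embryo, in what follows. The 9 genes belong to a larger family, and 39 other nuclear receptor genes were listed beside them. Of these 31 passed the count filter, 11 were called higher in the adult and 1 higher in the embryo, and their median log2 fold change was 1.40. The 9 receptor genes, with 5 called and a median of 2.69, are read against these and against all genes. *Thrb* rose from a median of 0.811 CPM to 100 and 82.3 CPM, at 6.46, and at 5.26 after the length and GC correction. *Nr5a1*, the gonadotrope factor also called SF-1, rose from a median of 2.50 CPM to 51.6 and 50.8 CPM, at 4.38.

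Receptors other than those of the classical hormones also rose. *Nr4a1*, *Nr4a2* and *Nr4a3*, which are induced within minutes by many stimuli, had log2 fold changes of 6.53, 6.22 and 5.84, but the adults differed, with *Nr4a1* at 130.4 and 561.3 CPM, and the values without adult 2 were 5.13, 4.28 and 4.12 and without adult 1 were 7.25, 7.04 and 6.63. The clock genes *Nr1d1* and *Nr1d2* rose by 3.52 and 4.23, the latter 3.19 after the correction. *Rora* (3.33) and *Esrrg* (3.16) were no longer called after the length and GC correction, at 1.10 and 1.94. *Ppara* was near the threshold at 2.21 with an adjusted p-value of 0.0426, and was called at 4.94 with the replicate number as a block. Its call was lost without adult 1, without adult 2 or without any of embryos 1 to 6, with log2 fold changes from 1.88 to 2.51. *Nr2f1* was the receptor gene called higher in the embryo, at -2.79, from a median of 19.8 CPM to 3.61 and 3.57 CPM, and *Nr2f2* (-1.52) joined it after the correction, at -2.32. The retinoid receptor genes *Rara* and *Rarb* and *Rxrb* were lower in the adult by the adjusted p-value alone, at -1.29, -1.08 and -1.52. *Nr1h4*, *Nr1i2*, *Nr1i3*, *Hnf4a*, *Hnf4g*, *Nr2e1*, *Nr2e3* and *Nr0b2* had too few counts to be tested.

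**Figure D4:**
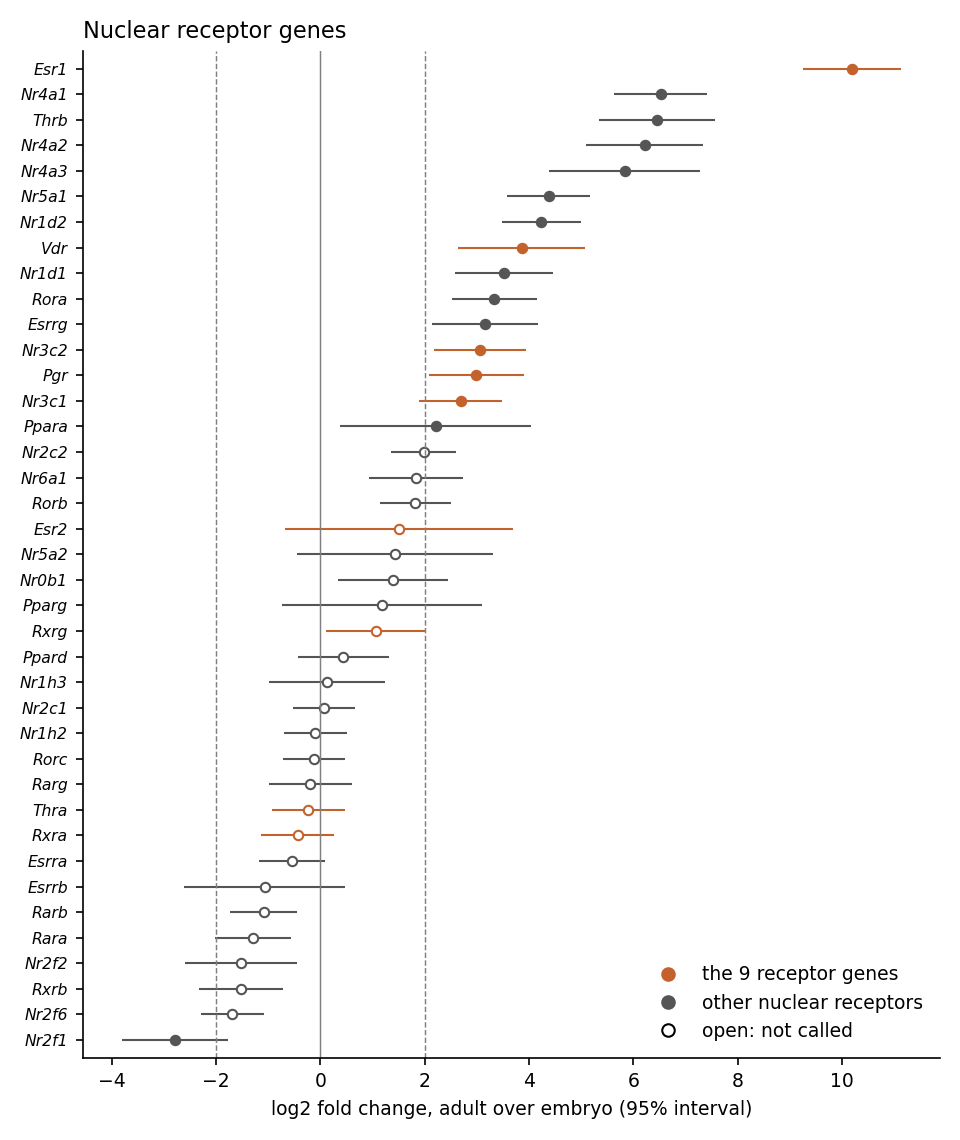
Log2 fold change, adult over embryo, with 95% intervals for the 9 receptor genes (orange) and other nuclear receptor genes (grey), filled where called and with dashed lines at the 4-fold threshold. *Esr1* at 10.19 lies above *Nr4a1* at 6.53 and *Thrb* at 6.46, and *Nr2f1* at -2.79 is the lowest.

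The plot of nuclear receptor fold changes places *Vdr*, *Nr3c2*, *Pgr* and *Nr3c1* among the called genes of the wider family. *Rxrg*, *Rxra* and *Thra* lie with the open points between the dashed lines. *Esr1* had the highest value of the genes drawn.

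Few genes of the proteins that work with the receptors were called. All 27 coactivator and corepressor genes were tested, and 1 was called in each direction, with a median of 1.08. *Ppargc1a*, a coactivator of metabolic receptors, rose (3.82, and 2.31 after the length and GC correction) and *Prmt1*, an arginine methyltransferase, fell (-2.58). By the adjusted p-value alone 14 were higher in the adult and 4 higher in the embryo, and after the length and GC correction the median was -0.22. The single call in the adult direction became 2 without embryo 1, 4 without embryo 7 and 3 without adult 1, through genes close to the threshold such as *Ncoa1* (1.95), *Ep300* (1.89) and *Lcor* (1.97). Chaperones of steroid receptors gave 0 calls of 15 in either direction by edgeR at the 4-fold threshold, and 0 by DESeq2, with a median of -0.39. At an unadjusted p-value below 0.05 and any fold, 7 were lower and 2 higher in the adult. By the adjusted p-value alone 6 were lower in the adult, among them *Fkbp4* (-1.69), *Hspa8* (-1.54) and *Dnajb1* (-1.68), and 2 were higher, *Fkbp5* (1.37) and *Hspa4* (0.95). *Fkbp4* and *Fkbp5* encode immunophilins that compete for a place in the steroid receptor complex, and their log2 fold changes had opposite signs.

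Of 20 genes that activate, inactivate or carry the ligands of the receptors 15 were tested, 4 were called higher in the adult and 3 higher in the embryo, with a median of 0.03. *Hsd11b1*, which regenerates active glucocorticoid, rose from a median of 0.293 CPM to 15.8 and 22.4 CPM (5.88), and *Hsd11b2*, which inactivates it, fell from a median of 6.88 CPM to 0.0727 and 0.309 CPM (-5.45, and -4.72 and -6.75 without adults 1 and 2). *Hsd11b1* thus made up 0% to 10.2% of the pair per length in the embryos, but 99.5% and 98.5% in adults 1 and 2. *Dio2*, which forms active thyroid hormone, rose from a median of 0.917 CPM to 69.8 and 123.6 CPM (6.66, and 5.36 after the length and GC correction). *Dio3*, which inactivates thyroid hormone, had a median of 1.44 CPM in the embryos and 0.121 and 0.0281 CPM in the adults (-4.28, adjusted p-value 0.0177), with overlapping groups. The call of *Dio3* was lost without either adult, at -5.55 with an adjusted p-value of 0.0611 and at -3.63 with 0.139. *Crym*, which binds thyroid hormone in the cytosol, fell from a median of 197.8 CPM to 2.59 and 3.18 CPM (-6.04).

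The other calls among these enzymes rested on few counts. *Cyp27b1*, which makes the active ligand of *Vdr*, was at 0 to 0.569 CPM in the embryos and 1.12 and 1.21 CPM in the adults, with a log2 fold change of 2.86 and an adjusted p-value of 0.0422. That call was lost when either adult or any of embryos 2, 4, 5 and 6 was left out, with adjusted p-values from 0.0514 to 0.155, and its value was 3.60 without embryo 3. *Dio1* had 4 counts in a single embryo and 13 and 66 in adults 1 and 2 (5.13, and 7.86 without embryo 6 and 5.90 without adult 1). Without adult 2 it fell below the count filter and was not tested, and the enzyme genes called higher in the adult went from 4 to 2. With the replicate number as a block *Dio1*, *Cyp27b1* and *Dio3* were not called (adjusted p-values 0.0762, 0.151 and 0.227), at 8.12, 4.04 and -3.08. *Cyp19a1*, *Sult1e1*, *Akr1c18*, *Cyp24a1* and *Gc* had too few counts to be tested, and *Cyp24a1*, which degrades the ligand of *Vdr*, is also a vitamin D response gene.

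Genes known to respond to glucocorticoids were higher in the adult in part. Of 14 genes, all tested, 4 rose at the 4-fold threshold and 0 were called higher in the embryo by edgeR or DESeq2, with a median of 1.53. They were *Klf9* (3.81), *Dusp1* (2.95), *Zbtb16* (2.82) and *Per1* (2.37). *Per1* was at 57.5 and 177.3 CPM in the adults, and its value was 1.35 without adult 2 and 2.99 without adult 1. It also fell short of the threshold after the length and GC correction, at 1.98, and with the replicate number as a block, at 1.93. *Fkbp5*, counted among the chaperones as well, was at 14.6 to 31.3 CPM in the embryos and 56.9 and 64.7 CPM in the adults. *Tsc22d3*, another established target, had the opposite sign (-1.07, adjusted p-value 0.00709). By the adjusted p-value alone 8 were higher in the adult and 1, *Tsc22d3*, was lower, which was also the only 1 lower at an unadjusted p-value below 0.05. The metallothionein gene *Mt1* was just under the threshold at 1.82, and reached 2.04 without embryo 4, 2.01 without adult 1 and 3.19 after the length and GC correction. *Mt2*, at 1.68, was called at 3.875 after that correction and at 2.54 with the replicate number as a block. These genes answer to many signals, and the part of *Nr3c1* in their values was not tested.

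*Mt1* and *Sgk1* were the only genes of the 114 list genes with a promoter in the table that held the glucocorticoid-type element, and their promoters are printed for that reason. The 250 bases before the start lie at chr8:94178839-94179088 for *Mt1* and, for the fifth of 6 listed promoters of *Sgk1*, at chr10:21993640-21993889, both on the plus strand of GRCm38.p6, with the element in capitals.
Mt1: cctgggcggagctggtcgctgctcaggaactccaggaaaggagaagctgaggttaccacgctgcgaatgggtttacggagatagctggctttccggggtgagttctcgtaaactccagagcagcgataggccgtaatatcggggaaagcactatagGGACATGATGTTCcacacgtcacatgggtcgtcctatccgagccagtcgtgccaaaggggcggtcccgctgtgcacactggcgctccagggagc
Sgk1: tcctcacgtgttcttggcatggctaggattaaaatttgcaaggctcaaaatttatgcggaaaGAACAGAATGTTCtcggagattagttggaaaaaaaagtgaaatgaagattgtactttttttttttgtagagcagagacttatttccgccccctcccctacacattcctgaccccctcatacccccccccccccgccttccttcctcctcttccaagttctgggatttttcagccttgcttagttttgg
The match began 94 bases before the start in *Mt1* and 188 bases before it in *Sgk1*. *Sgk1* itself was not called, at 27.2 and 16.6 CPM in the adults and 10.6 to 21.2 CPM in the embryos (0.43, adjusted p-value 0.263). Neither gene was called at the 4-fold threshold.

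Several oestrogen response genes of the pituitary differed between the 2 adults as well as between stages. Of 11 genes, all tested, 4 were called higher in the adult and 1 higher in the embryo, with a median of 0.62. *Prl*, prolactin, rose from at most 1.10 CPM in the embryos to 62120 and 29390 CPM (17.19, and 16.57 without adult 1). *Prl* and *Pgr*, itself a receptor described above, kept their calls when either adult was left out. After the length and GC correction 2 of the 4 calls in the adult direction were lost, *Pgr* at 1.73 and *Greb1* at 1.09 (adjusted p-value 0.151), and *Greb1* was also not called with the replicate number as a block (0.111). *Gal*, galanin, was at 46.7 CPM in adult 1 but 1.24 CPM in adult 2 (5.44), and without adult 1 it was at 1.21 with an adjusted p-value of 0.464, and without adult 2 at 6.41. *Greb1* was at 21.8 and 3.01 CPM (2.18), and without adult 1 at 0.16 with an adjusted p-value of 0.896, and without adult 2 at 3.01. Adult 1 was thus the higher of the adults for *Esr1*, *Pgr*, *Prl*, *Gal* and *Greb1*, with a ratio that was small for *Pgr*. The adults differed in sex, and its part in these differences was not tested. *Igfbp4* fell from a median of 343.5 CPM to 56.1 and 45.3 CPM (-3.03). *Nrip1*, which is also a corepressor, was at 1.56 with an adjusted p-value of 0.00319.

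Thyroid hormone response genes gave the highest share of calls in the adult direction among the 8 related lists, the cell markers apart. Of 9 genes, 7 were called higher in the adult and 0 higher in the embryo by edgeR or DESeq2, with 0 lower in the adult at an unadjusted p-value below 0.05, and the median was 3.81. *Thrsp* rose from a median of 0.289 CPM to 30.1 and 27.8 CPM (5.80, and 6.51 without embryo 2), *Hr* from 2.36 CPM to 52.7 and 39.1 CPM (4.59), and *Klf9*, also in the glucocorticoid list, from 3.27 CPM to 65.8 and 65.2 CPM. *Gh* (17.13, and 17.98 without embryo 1) and *Cga* (2.76) rose as well, and both are hormone-cell markers. *Dio1* was the sixth, not tested without adult 2 for too few counts, and *Me1* the seventh, at the threshold itself with 2.00. *Me1* was no longer called without adult 1 or without embryo 1, 3, 4 or 6, at values from 1.88 to 1.96, or after the length and GC correction, at 1.57. *Tshb*, which thyroid hormone represses, was at 76.4 to 432.3 CPM in the embryos and 228.7 and 440.1 CPM in the adults (0.64, adjusted p-value 0.267). The list mixes genes that the hormone raises with genes that it lowers, so its count of calls gives no direction of response. *Bcl3* was at 1.86, and was called at 2.08 without embryo 4, 2.26 without adult 1 and 2.45 after the correction, where the list again had 7 calls. The hormone-cell sum rose with these genes, and its part in their values was not tested.

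Most calls among the retinoid and vitamin D response genes went the other way. *Trpv6* was the only vitamin D gene called. Of 9 genes 8 were tested, 1 was called higher in the adult and 5 higher in the embryo, and the median was -2.80. *Crabp2*, a retinoic acid carrier, fell from a median of 370.7 CPM to 1.75 and 2.7 CPM (-7.62), and *Stra6*, the retinol uptake receptor, from 38.6 CPM to 6.01 and 2.73 CPM (-3.51, and -4.18 without adult 1). *Cyp26a1*, which degrades retinoic acid, had no count in the adults, so that the embryo mean was at least 11.7-fold higher, taking the floor as 3 counts in each adult library. Its call was lost with the replicate number as a block (adjusted p-value 0.0839). *Dhrs3* was near the threshold at -2.08, and was not called without adult 2 (-1.74) or without embryo 2 (-1.99), after the length and GC correction (-1.645) or when scaled by library size alone (-1.83). *Cyp26b1* was the exception, at 0 to 2.06 CPM in the embryos and 21.3 and 8.07 CPM in the adults (4.26, and 3.43 without adult 1). *Trpv6*, a calcium channel gene that vitamin D induces in the gut, fell (-3.70) while *Vdr* rose. *Rarb*, also listed with the receptors, was at 38.7 to 71.9 CPM in the embryos and 24.9 and 26.3 CPM in the adults.

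**Figure D5:**
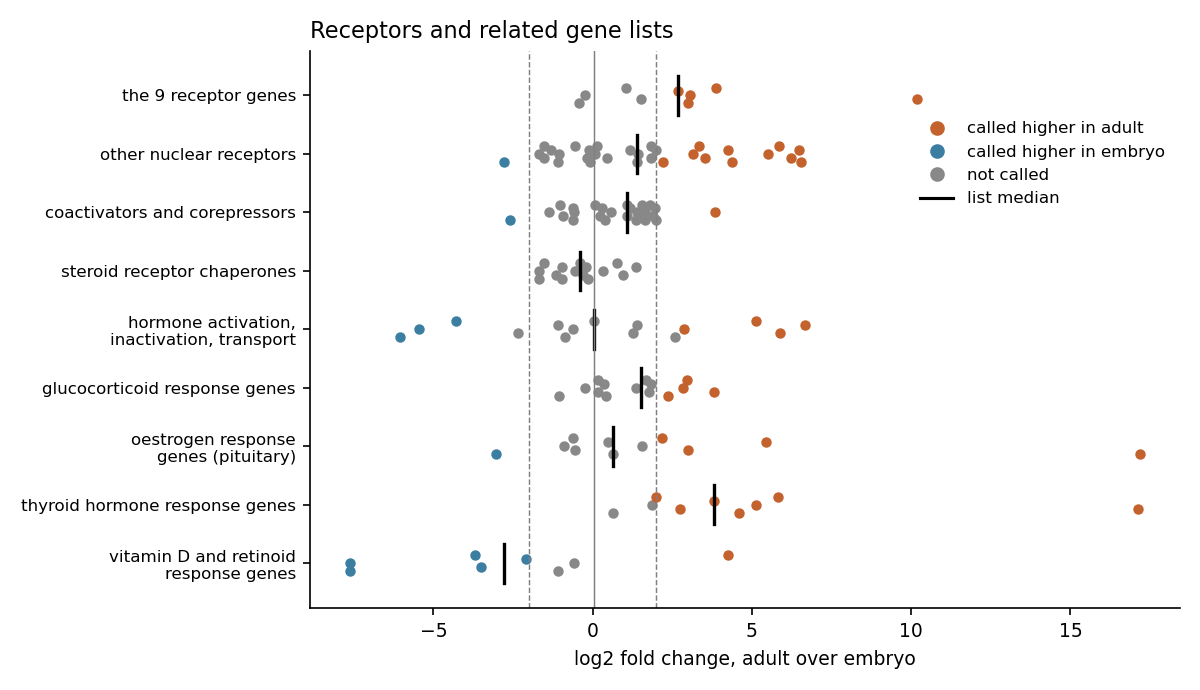
Log2 fold change, adult over embryo, of each tested gene of the receptor set and 8 related lists, coloured by call, with a bar at the list median and a grey line at the median of all tested genes, 0.04. The medians are 2.69 for the 9 receptor genes, 3.81 for the thyroid hormone response genes and -2.80 for the vitamin D and retinoid response genes.

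The plot of the gene lists places the receptors beside their partners, enzymes and response genes, with *Cyp26a1* at its fitted value, and the median of its list was the same with this gene at its bound. Medians of the chaperones (-0.39) and of the enzymes (0.03) lie near that of all genes. Those of the thyroid hormone response genes and of the 9 receptor genes lie to the adult side. After the length and GC correction the medians were 1.70 for the 9 receptor genes, 0.59 for the other nuclear receptors, 3.89 for the thyroid hormone response genes and 1.41 for the glucocorticoid response genes. The lists share members with each other, so their medians are not independent.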

How the data were processed

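Per the submitters' processing notes and labels, the authors trimmed reads with Trimmomatic 0.39, aligned them to mm10 (GRCm38) with STAR 2.7.5b and deposited raw counts of read pairs for 55450 genes of Ensembl release 96. The strand-specific counts of the 7 embryo and 2 adult libraries were used. All identifiers were matched to symbols in GENCODE M21. Genes averaging 5 counts or more per library (19371) were scaled with TMM and fitted in edgeR 4.0.16 (R 4.3.3) by the quasi-likelihood test, with stage as the only term and Benjamini-Hochberg adjustment over all of them. Calls needed a fold change above 4 and an adjusted p-value of less than 0.05. Statistics without another source, log2 fold changes (adult over embryo) among them, are from this fit. The length and GC correction used splines with 4 degrees of freedom in each library, taken from genes averaging 50 counts or more. DESeq2 1.42.0 was 1 of 20 alternatives, with other filters, scalings, strands and thresholds, a replicate block and left-out libraries. Scripts in Python 3.11.15 made the tables. Named genes were the members, the genes of the lists and markers, and the 3 genes closest to each member, of which some are not reported here. *Egfp* and *Gm7862* were named for what the labels and the annotation hold. The members and lists were chosen with earlier results of these data known. Proteins were not compared, and sex was not used.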

Additional observations from a re-analysis of the deposited data

Results flagged for a closer look

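Among 17 groups of values over the 7 embryos, 3 held a library far from the others, where chance gives about 1 in 20 groups. *Vdr* was at 2.12 CPM in embryo 1, and the next embryo was at 0.979 CPM. The endothelial marker sum was 507 CPM in embryo 2, with the next embryo at 285.3 CPM. In the same library the neural and posterior lobe sum was 135 CPM, with the next at 79.2 CPM.

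Counts on the strand opposite to each receptor gene, which entered the alternative with unstranded counts alone, stood above the level of all genes for *Pgr* and *Thra* in the adults. They were 9.45% and 9.49% of both strands for *Pgr* in adults 1 and 2, and 13.9% and 10.9% for *Thra*, where all genes together gave 4.59% and 4.38%. *Nr1d1*, which overlaps *Thra* on that strand, was at 9.17 CPM in the embryo mean and 105.7 CPM in the adult mean. For *Pgr* the embryos ranged from 0% to 37.8%, on at most 15 counts.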

How the results depend on the processing

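Under 20 alternatives the number of genes called, 5001, became 8960 with a fold change above 2 and 9948 with no threshold on fold change, and 3683 to 5290 with 1 library left out. The receptor genes called higher in the adult stayed at 5 in 19 of the alternatives, with 5 in every fit that left out a library, and became 3 under the length and GC correction, where *Nr3c1* (1.25) and *Pgr* (1.73) fell short of the 4-fold threshold. The number called higher in the embryo was 0 in all 20. *Thra*, which was not called, changed sign from -0.23 to 0.14 under the same correction, and the cause was not tested. Replicate numbers only count different animals of each stage. With the replicate number as a block the total was 4236, with 2440 higher in the adult, and the receptor genes called higher in the adult were again 5. Libraries with the same number had correlations of deviations of 0.0331 and 0.000313. With 2 adults, crossing the numbers gives the same values with opposite sign, so these correlations cannot show whether the numbers pair. The block stands only as an alternative because the numbers count different animals. Scaling by library size alone gave 3250 genes higher in the adult and 1738 higher in the embryo, against 2819 and 2182. With 1 adult left out, the lone adult is assumed to vary like the embryos. Depth limits *Esr1* and *Esr2* in the embryos, where 20 and 50 counts were spread over 7 libraries.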
